A study of Mus musculus with 15 samples.

Results

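The 9 genes described here belong to the machinery with which the retinal pigment epithelium (RPE) recognises and engulfs shed photoreceptor outer segments. They are the TAM receptor tyrosine kinases *Tyro3*, *Axl* and *Mertk*, the secreted TAM ligands *Gas6* and *Pros1*, the integrin subunits *Itgav* and *Itgb5*, the bridging molecule *Mfge8* and the scavenger receptor *Cd36*. They were taken by gene symbol with no limit on their values, but the set was chosen with earlier results of these data known. Of them, 8 were measured among the 20910 genes of cultured mouse RPE (mRPE) cells, where *Cd36* is not analysed here, and all 9 among the 25038 genes of mouse RPE/choroid tissue.

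The study asked what loss of prominin-1 (*Prom1*), a membrane protein of microvilli and photoreceptor discs, does to the RPE. RNA-seq counts were used from 15 libraries. In culture there were 4 libraries of WT cells, 3 of the *Prom1*-KO clone KO22 and 2 of the *Prom1*-KO clone KO26. The methods describe the mRPE cells as pooled from C57/BL6J mice and immortalised with a lentivirus carrying HPV E6/E7. Both clones came from mRPE cells that stably expressed Cas9 from a lentivirus and were transfected with a guide RNA to *Prom1*. The protocol names 1 guide, to exon 5, while the methods state that the KO lines carry different deletions at distinct places in *Prom1*, so each clone stands for 1 editing event with a lesion of its own. Whether the WT libraries came from Cas9 cells with a scrambled guide is not stated in the labels. In tissue there were 3 libraries of WT RPE/choroid and 3 labelled *Prom1*-KO, from *Prom1* fl/fl mice carrying an RPE65-Cre and gavaged with tamoxifen. RPE65 drives the Cre in RPE, so choroidal cells and photoreceptors in the dissected tissue keep *Prom1*. The labels give neither the age of the mice nor whether the WT mice carried a floxed allele or received tamoxifen.

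Outer segments and dying cells expose phosphatidylserine. Gas6 and protein S (the product of *Pros1*) bind that lipid and bridge it to the TAM receptors, while Mfge8 bridges it to the integrin alphaV beta5, whose subunits are encoded by *Itgav* and *Itgb5*. In the RPE the integrin is known for binding outer segments and Mertk for triggering their uptake, and loss of Mertk causes retinal degeneration in rodents and in people.

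The total count per library ran from 8076188 to 27537863 in culture and from 48154444 to 61766179 in tissue, of which 9776466 to 19655673 lay outside mitochondrial genes in the tissue libraries. The culture libraries came in 2 series with different name prefixes (8995 and 9262), of which series 8995 held 1 library per group, and the prefix entered each culture fit as a batch term. *Prom1* itself is not analysed here in culture. In tissue, *Prom1* was at 48.7, 49.6 and 53.3 CPM (counts per 10 to the power 6) in WT and at 49.9, 48.1 and 35.5 CPM in the libraries labelled *Prom1*-KO, a log2 difference of -0.18 (SE 0.16, adjusted p = 0.824, edgeR). The deleted part is not resolved in a count of the whole gene, so this count neither shows nor excludes the deletion in RPE. The third library labelled *Prom1*-KO (12965-SB-06) stood apart, with 80.4% of its counts in the 2 mitochondrial ribosomal RNA genes against 55.3% to 63.2% in the other 5 tissue libraries, and fold changes of the tissue members are therefore also given without it. The TMM factor that scales its CPM was 0.488, against 1.07 to 1.33 in the other 5. Whether the tissue groups overlap for a gene therefore depends on this scaling. Of 13 RPE markers only *Best1*, *Mitf* and *Pmel* were analysed in culture. They summed to 8.18 to 12.8 CPM in WT, beside 12800 to 17500 CPM for 5 fibroblast markers led by collagen genes. The other RPE markers are not analysed here in culture, so these values do not settle the RPE identity of the cells. Whether the replicate libraries came from separate cultures or animals is not stated in the labels, so the p-values measure only the spread between these libraries.

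The guide site is shown because it is the one target that the protocol names, and the deletion in each clone is not analysed here. It lies on the minus strand of GRCm39 at chr5:44213310-44213329, in exon 5 of *Prom1*, with the protospacer-adjacent motif in capitals.

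Prom1 guide site: cgttgctgcaacaaatgcggCGG

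The starts of the 3 members that changed most in KO22 are shown next as the 250 bases before the RefSeq transcription start, read 5′ to 3′ on the strand of the gene. The sequences are from RefSeq (table of GRCm38.p6), and their positions were found again in GRCm39 by exact match. Capitals mark the GC box, GGGCGG on either strand, the core motif bound by Sp1-type factors. The *Mertk* window is chr2:128540585-128540834 (plus strand), the *Gas6* window is chr8:13544536-13544785 (minus strand) and the *Tyro3* window is chr2:119629745-119629994 (plus strand).

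Mertk: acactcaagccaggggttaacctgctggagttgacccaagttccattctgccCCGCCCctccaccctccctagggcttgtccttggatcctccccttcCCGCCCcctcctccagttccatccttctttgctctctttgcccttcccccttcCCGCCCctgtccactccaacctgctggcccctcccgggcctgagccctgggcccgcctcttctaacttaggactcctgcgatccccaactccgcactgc
Gas6: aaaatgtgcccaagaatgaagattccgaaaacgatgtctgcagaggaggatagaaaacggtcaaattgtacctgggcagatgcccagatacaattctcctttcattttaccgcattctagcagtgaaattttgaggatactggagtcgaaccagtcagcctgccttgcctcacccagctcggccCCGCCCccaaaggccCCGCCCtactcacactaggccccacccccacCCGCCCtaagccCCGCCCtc
Tyro3: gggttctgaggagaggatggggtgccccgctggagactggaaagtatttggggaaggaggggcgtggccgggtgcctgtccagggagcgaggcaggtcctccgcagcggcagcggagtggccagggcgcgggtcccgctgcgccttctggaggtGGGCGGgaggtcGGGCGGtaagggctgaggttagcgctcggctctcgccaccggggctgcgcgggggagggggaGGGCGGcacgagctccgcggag

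The *Mertk* and *Tyro3* windows hold 3 GC boxes each and the *Gas6* window holds 4. At least 1 GC box is found in 32.7% of the 32841 windows of the same length in the table, and 3 or more in 8.47%. The E-box CACGTG (6.02% of all windows), the AP-1 site TGACTCA (4.46%) and the TATA box TATAAA (12.4%) occur in none of the 9 members' windows, on either strand. G and C make up 63.6% of the *Mertk* window, 54.8% of the *Gas6* window and 73.2% of the *Tyro3* window, against a median of 52.4% over all windows. Of the other members, *Pros1* had 5 GC boxes in its window, *Mfge8* 4, *Itgb5* 3, *Cd36* 2, *Axl* 1 and *Itgav* none, so GC boxes were found in members that rose, fell or were not called.

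In KO22 the TAM genes moved in different directions. The receptor *Mertk* and the ligand *Gas6* fell by more than 10-fold, the receptor *Tyro3* rose 4.79-fold, and *Axl*, the most abundant receptor in these cells, was not called. Of the 8 members tested, 1 rose and 2 fell past both limits (an adjusted p below 0.05 together with a log2 fold change of more than 1.2 in either direction), against 11.4% of the 20455 tested genes higher and 13.8% lower. By the adjusted p alone 3 members rose and 3 fell, where 26.9% of all genes rose and 26.1% fell. So many genes passed in this comparison that the members' counts are near that background, and the results below are the sizes of the single changes. The median log2 fold change was 0.02 over the members and -0.03 over all genes.

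**Figure D1:**
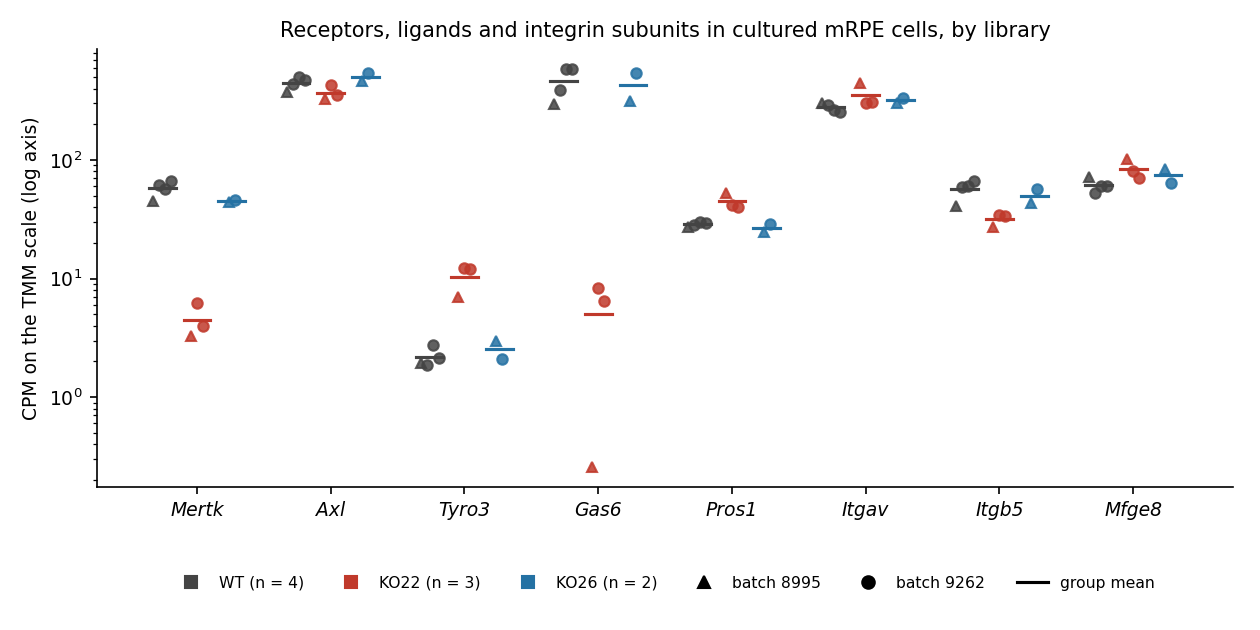
CPM on the TMM scale (log axis) of 8 genes in 9 cultured mRPE libraries. Each point is a library (triangles, batch 8995; circles, batch 9262) and each horizontal line a group mean. KO22 lies apart from WT and KO26 for *Mertk*, *Tyro3* and *Gas6*, and KO26 lies among or beside the WT libraries for every gene shown.

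*Mertk* (ENSMUSG00000014361, GRCm39 chromosome 2, 128540729 to 128645080, plus strand) encodes the receptor required for outer segment uptake. It was at 45.3, 61.7, 57.4 and 66.6 CPM in the 4 WT libraries, at 3.29, 6.22 and 3.96 CPM in KO22, and at 44.4 and 45.6 CPM in KO26. Every KO22 library was below every other library, and the highest KO22 value was several times lower than the lowest WT value. The log2 fold change in KO22 was -3.63 (SE 0.18, 95% confidence interval -4.03 to -3.24, adjusted p = 8.09e-07, edgeR's quasi-likelihood test with Benjamini-Hochberg adjustment), a 12.4-fold lower level. It was -3.73 within batch 8995 and -3.6 within batch 9262.

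*Tyro3* (ENSMUSG00000027298, chromosome 2, 119628214 to 119648738, plus strand) encodes the TAM receptor best known from neurons. It was low in WT, at 1.95, 1.85, 2.75 and 2.15 CPM (27 to 49 counts a library), and higher in KO22, at 6.92, 12.2 and 12 CPM. In KO26 it was at 2.97 and 2.08 CPM. The KO22 libraries did not overlap the other 6. The log2 fold change in KO22 was 2.26 (SE 0.22, adjusted p = 2.95e-05, edgeR), and it was 1.76 within batch 8995 and 2.38 within batch 9262.

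*Axl* (ENSMUSG00000002602, chromosome 7, 25456535 to 25488329, minus strand), the TAM receptor that prefers Gas6 as its ligand, was at 371, 440, 497 and 473 CPM in WT, at 326, 428 and 351 CPM in KO22, and at 466 and 538 CPM in KO26. The KO22 and WT values overlapped over both batches, although within each batch the KO22 libraries were the lower ones. The log2 fold change of -0.25 (95% confidence interval -0.51 to 0.02) had an adjusted p of 0.104 with edgeR, and over the 15 alternative settings its adjusted p ran from 0.0272 to 0.265. It was under 0.05 in 4 of them, among these without WT replicate 1 (0.0272) and without KO22 replicate 1 (0.043), both of batch 8995.

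*Gas6* (ENSMUSG00000031451, chromosome 8, 13515371 to 13544824, minus strand), the vitamin K-dependent ligand of all TAM receptors, had the largest change of the members. It was at 294, 386, 582 and 583 CPM in WT, at 0.259, 8.34 and 6.44 CPM in KO22, and at 315 and 537 CPM in KO26. The KO22 values rest on 3, 173 and 83 counts, against 5626 to 8130 counts in the WT libraries. The log2 fold change was -6.61 (SE 0.51, 95% confidence interval -7.75 to -5.47, adjusted p = 9.08e-06, edgeR), or 97.6-fold lower. It came to -6.09 within batch 9262. In batch 8995, where KO22 has 3 counts, the WT library was 1130-fold higher, with an exact 95% counting interval of 387 to 5490 that covers counting error only.

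*Gas6* overlaps the gene *Tmem255b* (13485189 to 13519420, opposite strand) by 4050 bases at their 3′ ends. *Tmem255b* was at 39.7 to 80.7 CPM in WT and at 0.0865, 1.25 and 1.09 CPM in KO22. Its log2 fold change was -6.2 (SE 0.31, adjusted p = 9.32e-07, edgeR). The library kits named in the sources keep strand, but whether the counting used it is not given in the sources used here, and without strand the reads of the 2 genes cannot be told apart in the overlap. Of the next tested protein-coding genes on that chromosome, *Tfdp1* was at a log2 fold change of 1.41 and *1700029H14Rik* and *Rasa3* were at -0.17 and -0.2. The median over the 1089 tested genes of chromosome 8, of every gene type, was 0.6.

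*Pros1* (ENSMUSG00000022912, chromosome 16, 62674275 to 62749710, plus strand), the gene of the second TAM ligand, rose modestly in KO22. It was at 27.3, 28.1, 29.8 and 29.4 CPM in WT, at 52.5, 41.5 and 40.2 CPM in KO22, and at 24.9 and 28.6 CPM in KO26. All KO22 libraries were above all WT libraries, with a log2 fold change of 0.62 (SE 0.12, adjusted p = 0.00218, edgeR) that is under the fold limit.

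The integrin subunits and their ligand moved less. *Itgb5* (ENSMUSG00000022817, chromosome 16, 33649988 to 33771137, plus strand) fell from 41.1, 58.7, 59.8 and 66.3 CPM in WT to 27.4, 34.3 and 33.9 CPM in KO22, without overlap. Its log2 fold change was -0.78 (SE 0.11, adjusted p = 0.000365, edgeR). *Itgav* (ENSMUSG00000027087, chromosome 2, 83554403 to 83637260, plus strand), which pairs with several beta subunits besides beta5, was at 255 to 301 CPM in WT and at 447, 301 and 306 CPM in KO22, with no overlap before rounding. The library of batch 8995 was the high one, and the log2 fold change of 0.29 (95% confidence interval 0.02 to 0.56) had an adjusted p of 0.0699. *Mfge8* (ENSMUSG00000030605, chromosome 7, 78783515 to 78798825, minus strand) was at 71.4, 52.9, 60.6 and 59.8 CPM in WT and at 102, 80 and 71 CPM in KO22. The lowest KO22 value lay just under the highest WT value, which came from the other batch. *Mfge8* passed the adjusted p limit with a log2 fold change of 0.43 (SE 0.11, adjusted p = 0.00786, edgeR), and no longer passed it without KO22 replicate 2 (0.35, adjusted p = 0.0743).

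Per length the changes amount to a different TAM composition. RPKM, the CPM divided by the exon length in kilobases, allows genes to be set beside each other. In WT mRPE, *Axl* made up 79.7% ± 1.51 (SD, n = 4) of the summed RPKM of the 3 receptors, *Mertk* 19.7% ± 1.56 and *Tyro3* 0.537% ± 0.0769. In KO22 *Axl* made up 94.2% ± 1.01 (n = 3), *Mertk* 2.15% ± 0.399 and *Tyro3* 3.62% ± 0.816, so that *Tyro3* exceeded *Mertk* in each KO22 library. The summed receptor level was 60.8 ± 7.53 RPKM in WT and 42.6 ± 6.48 RPKM in KO22.

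For the ligands the order was inverted. *Gas6* made up 92.5% to 95.8% of the summed ligand RPKM in the WT libraries and 0.565%, 18.8% and 15.5% in the KO22 libraries, where *Pros1* held the rest. The summed ligand level was 88.4 ± 26.5 RPKM in WT and 7.99 ± 0.418 RPKM in KO22, since the rise of *Pros1*, from 4.54 ± 0.184 to 7.08 ± 1.07 RPKM, is small beside the loss of *Gas6*.

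**Figure D2:**
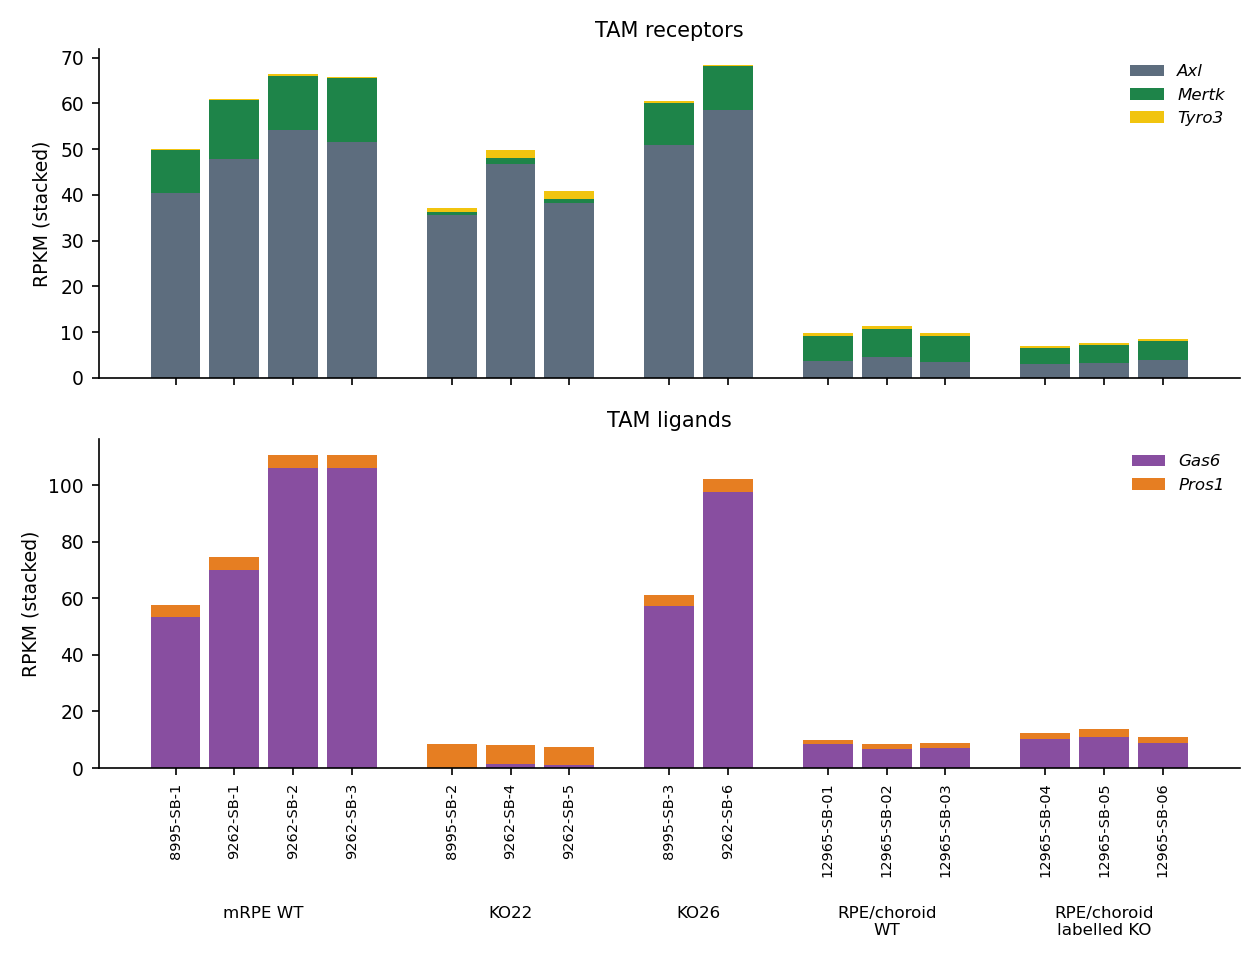
Stacked RPKM of the TAM receptors (top) and TAM ligands (bottom) in each of 15 libraries, grouped by condition; culture and tissue were counted and scaled apart. In KO22 the *Gas6* and *Mertk* segments nearly vanish, and in tissue *Mertk* is the largest receptor segment.

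By mean RPKM, the order in WT mRPE was *Gas6* (83.8), *Axl* (48.5), *Itgav* (22.5), *Mfge8* (12.8), *Mertk* (12), *Itgb5* (8), *Pros1* (4.54) and *Tyro3* (0.326). The ranges over libraries overlapped between *Gas6* and *Axl* and between *Mfge8* and *Mertk*, and were separate for the other neighbours. In KO22 the order was *Axl* (40.2), *Itgav* (28.5), *Mfge8* (17.7), *Pros1* (7.08), *Itgb5* (4.51), *Tyro3* (1.56), *Mertk* (0.933) and *Gas6* (0.912), where *Axl* overlapped *Itgav* and the last 3 overlapped from one to the next. *Gas6* thus went from first to last in the list.

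In clone KO26 none of these changes was called. The study's own analysis set both KO26 libraries aside as outliers of a principal component analysis, and they are used here because the labels assign them to that clone, so every KO26 value rests on those libraries alone. None of the 8 members passed either limit against WT, none had an unadjusted p under 0.05 with edgeR, and DESeq2's Wald test gave none an adjusted p under 0.05, a limit that 8.93% of the genes it gave an adjusted p did pass. Over all 20737 tested genes, 3.5% passed the adjusted p limit and 1.92% passed both limits. The log2 fold changes ran from -0.24 for *Mertk* to 0.37 for *Tyro3*. The intervals leave room for smaller changes. The 95% confidence interval was -0.67 to 0.19 for *Mertk*, -0.77 to 1.16 for *Gas6* and -0.35 to 1.09 for *Tyro3*. The KO22 values of -3.63, -6.61 and 2.26 lie outside these intervals. Within batch 8995 *Mertk* in KO26 differed from WT by -0.03, and within batch 9262 by -0.44, where the single KO26 library was below all 3 WT libraries. KO26 rests on 2 libraries, and leaving out either one leaves a single library whose spread is assumed to be that of the other groups.

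The difference between the clones was tested directly, in a fit over all 9 culture libraries. *Mertk* was 10.5-fold lower in KO22 than in KO26 (log2 fold change -3.4, SE 0.21, adjusted p = 2.67e-06, edgeR), *Gas6* was 111-fold lower (-6.79, SE 0.55, adjusted p = 1.32e-05) and *Tyro3* was 3.73-fold higher (1.9, SE 0.34, adjusted p = 0.00167). Past both limits were 1 higher and 2 lower of 8 members, beside 7.56% higher and 10.7% lower of all genes. By the adjusted p alone 2 were higher and 4 lower, beside 16.3% and 18.1%. The additional ones were *Pros1* at a log2 fold change of 0.75 (adjusted p = 0.00593), *Itgb5* at -0.72 (adjusted p = 0.00261) and *Axl* at -0.49 (adjusted p = 0.0213). *Axl* lost that call without either KO26 library (adjusted p = 0.0867 and 0.0644) and without KO22 replicate 3 (0.0758), and *Pros1* lost it without KO26 replicate 1 (0.0517). With no batch term *Axl* (0.124) and *Itgb5* (0.0553) lost it, and with the KO22 and KO26 libraries alone *Axl* (0.109) and *Pros1* (0.0805) did. Because the KO22 libraries enter both this comparison and that with WT, the comparisons are not independent.

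**Figure D3:**
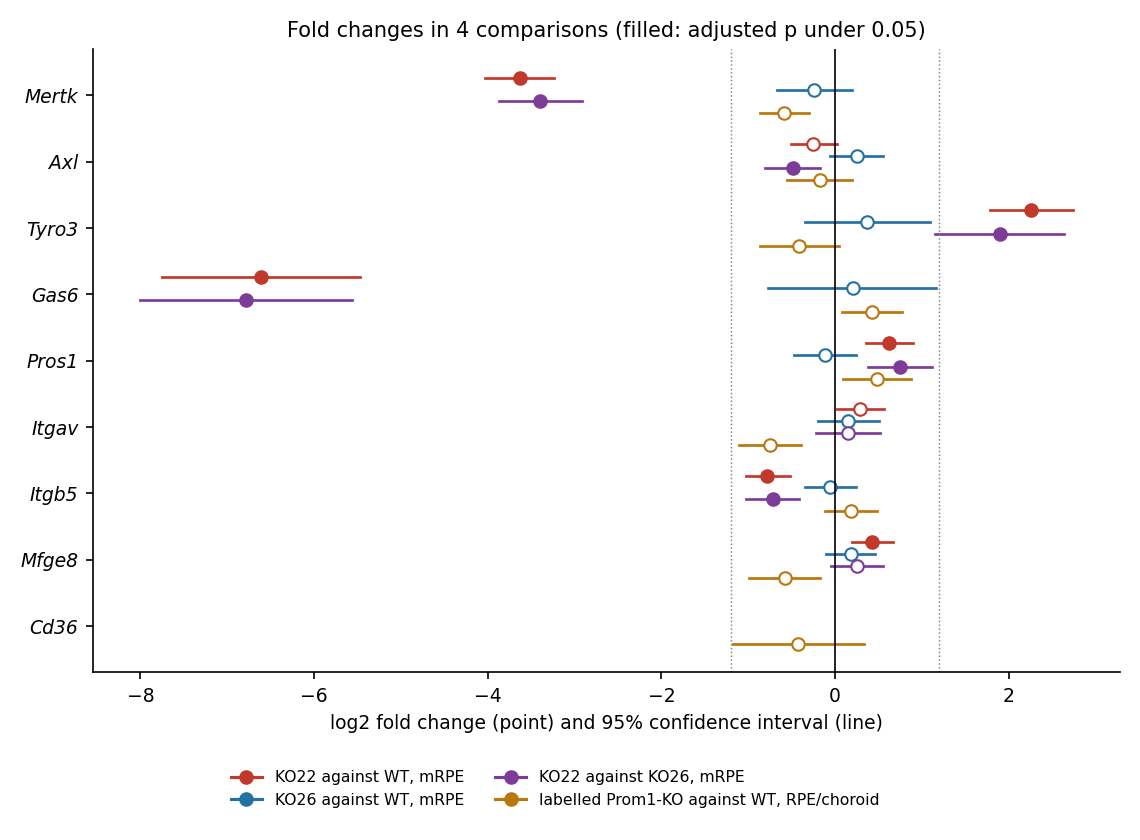
Log2 fold change (points) with 95% confidence interval (lines) of each gene in 4 comparisons; filled points have an adjusted p under 0.05 and dotted lines mark the fold limit of 1.2. The points for *Mertk*, *Gas6* and *Tyro3* lie beyond the limits in both comparisons that involve KO22 and inside them in the others.

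Other cell type markers moved with KO22. The summed level of 5 fibroblast markers was 12800 to 17500 CPM in WT, 5560 to 8670 in KO22 and 19900 to 21800 in KO26. In KO22, 3 of the 5 fell past both limits and *Col3a1* fell by the adjusted p alone. *Dcn* went the other way without a call, from 828 ± 283 to 1190 ± 280 CPM (log2 fold change 0.61, adjusted p = 0.113, edgeR). The 6 pericyte and smooth muscle markers summed to 969 to 2050 CPM in WT, 295 to 404 in KO22 and 1240 to 2290 in KO26. Of these 6, *Acta2* (881 ± 515 to 178 ± 48.4 CPM), *Pdgfrb*, *Tagln* and *Rgs5* fell past both limits in KO22, while *Cspg4* rose, from 6.32 ± 0.494 to 23 ± 3.89 CPM. The 6 endothelial markers analysed summed to 217 to 270 CPM in WT, 81.3 to 96.2 in KO22 and 116 to 122 in KO26, and they moved in both directions. *Kdr*, most of that sum, fell from 177 ± 38.7 to 2.21 ± 1.71 CPM in KO22 and *Tek* fell past both limits, *Plvap* rose past both limits at about 1 CPM, *Flt1* rose by the adjusted p alone, from 54.6 ± 14.6 to 81.8 ± 7.9 CPM, and the median log2 fold change of the 6 was 0.11. The 3 RPE markers summed to 15.5 to 38.7 CPM in KO22 and 5.38 to 9.14 in KO26, above and partly below the WT range. In KO22 they did not rise together. Only *Mitf* was called (log2 fold change 1.41, adjusted p = 0.0055, edgeR). *Best1*, at 3.34 to 17.4 CPM in KO22, was not called (0.8, adjusted p = 0.159). *Pmel* was lower without a call, at 1.21 to 1.78 CPM in KO22 and 1.92 to 2.26 CPM in WT. The 3 macrophage markers analysed were low in every culture library, at 7.75 to 9.72 CPM in WT, 10.9 to 13.8 in KO22 and 10.7 to 11 in KO26. The part of these markers in the results was not tested. In bulk RNA, fewer cells of a type and less RNA per cell cannot be told apart.

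The genes whose levels followed a member most closely over the 9 culture libraries are given as a description, among 9460 genes with a mean of at least 10 CPM; the libraries share their batches and their KO22 against non-KO22 contrast. For *Mertk* they were *Plaat3* (Pearson r = 0.998), *Ctsf* (0.996), a lysosomal cysteine cathepsin, and *Fmod* (0.995), a small leucine-rich proteoglycan. For *Gas6* they were the tight junction claudin *Cldn1* (0.997), *Cnot2* (0.996) and the nucleoside transporter *Slc29a3* (0.996). For *Tyro3* they were *Ddx10* (0.992), *Topors* (0.99) and *Smc1a* (0.988). High values are common here, since 5154 genes passed both limits in KO22 against WT and so many separate KO22 from the other 6 libraries. *Cldn1* was at 235 ± 77.7 CPM in WT, 4.7 ± 4.72 in KO22 and 248 ± 111 in KO26, and *Plaat3* at 54.3 ± 9.84, 3.16 ± 1.38 and 45.8 ± 3.97 CPM.

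Around these 8 members, 6 lists hold 83 other genes of engulfment, of which 71 were tested in culture. In KO22 against WT, 5 rose and 4 fell past both limits, and 25 rose and 21 fell by the adjusted p alone. Of all genes, 11.4% and 13.8% passed both limits and 26.9% and 26.1% passed the adjusted p, in the same order. The median log2 fold change of the 71 was 0.07.

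Among other bridging molecules, *Lgals3*, the gene of galectin-3 and also a reported Mertk ligand, rose from 16.5 ± 0.722 CPM in WT to 203 ± 82.1 in KO22, with a log2 fold change of 3.52 (SE 0.17, adjusted p = 8.37e-07, edgeR). The matricellular genes *Thbs1* and *Ccn1* fell, by 1.71 and by 1.57 on the log2 scale. Of the 5 tested genes of this list, 1 rose and 2 fell past both limits.

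Of 8 tested engulfment receptors, 3 rose and 1 fell past both limits. The oxidised lipoprotein receptor *Olr1* rose from 0.33 ± 0.103 CPM to 3.49 to 25 CPM (log2 fold change 4.79, SE 0.42, adjusted p = 1.73e-05, edgeR). *Itgb3*, an alternative beta partner of *Itgav*, rose by 1.28, from 11.8 ± 0.652 to 28.7 ± 2.09 CPM, and the scavenger receptor *Stab1* by 1.26. *Stab2* fell from 1.53 ± 0.288 to 0.63 ± 0.178 CPM (-1.21, adjusted p = 0.0136).

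Downstream, 25 genes of signalling to the actin skeleton were tested and 2 passed both limits in KO22. The engulfment adaptor *Gulp1* fell from 94.2 ± 7.57 to 28.5 ± 3.61 CPM (-1.74, adjusted p = 6.31e-06), and *Anxa2*, an actin-binding annexin, rose from 303 ± 68.6 to 893 ± 148 CPM (1.53, adjusted p = 6.77e-06). Among 16 genes of phagosome processing, 8 genes of TAM regulation and 9 of surface signals, none passed both limits. The TAM regulators that passed the adjusted p alone included *Ggcx*, the carboxylase that activates Gas6 and protein S (-0.71, adjusted p = 0.00129), and the sheddases *Adam10* (0.83, adjusted p = 8.3e-05) and *Adam17* (-0.54, adjusted p = 0.00588), which are known to cleave Mertk or Axl from the surface.

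In KO26 against WT, 1 of the 71 passed both limits, *Gpnmb*, a lysosomal and phagosomal glycoprotein, which fell from 112 ± 32.3 to 26.7 ± 5.86 CPM (-1.91, adjusted p = 0.00421, edgeR). *Myo7a* (1.03), the motor that moves RPE phagosomes, *Itgb3* (0.79) and *Anxa2* (0.61) passed the adjusted p alone. Of all genes, 1.92% passed both limits and 3.5% passed the adjusted p in this comparison. Between the clones, 3 of the 71 genes were higher and 4 lower in KO22 past both limits, beside 7.56% higher and 10.7% lower of all genes. The higher ones were *Olr1* (5.19), *Lgals3* (3.93) and the receptor *Megf10* (1.69), and the lower ones were *Pik3r1* (-1.7), *Gulp1* (-1.62), *Ggcx* (-1.36) and *Myo7a* (-1.36).

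**Figure D4:**
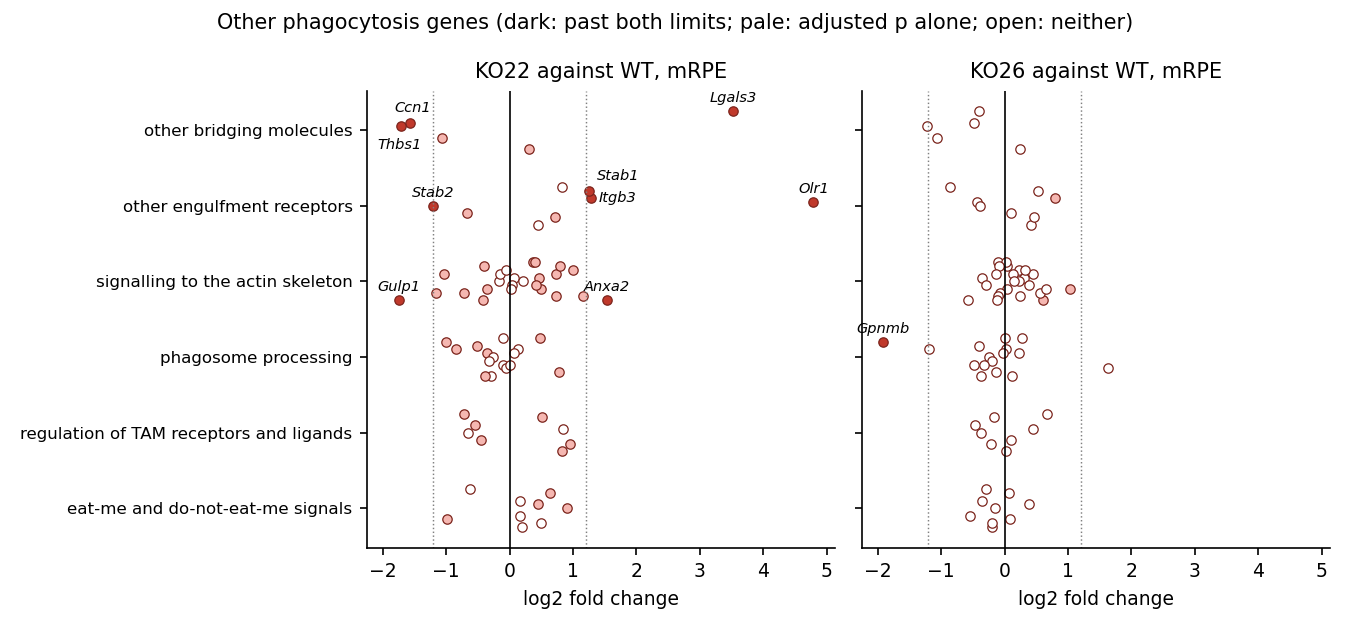
Log2 fold change of each tested gene of 6 phagocytosis lists (rows) in KO22 (left) and KO26 (right) against WT. Dotted lines mark the fold limit of 1.2. In KO22, 9 genes pass both limits, and in KO26 1 does.

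In RPE/choroid none of the 9 members passed the adjusted p limit with edgeR, where 0.193% of the 24926 tested genes did. At an unadjusted p under 0.05 there were 5 of the 9, against 8.3% of all genes. DESeq2's Wald test gave an adjusted p under 0.05 for 2, *Itgav* (0.00277) and *Mertk* (0.00816), neither past the fold limit, where 1.87% of the 23919 genes with an adjusted p from that test were under 0.05. The groups did not overlap for 3 members that were higher in the libraries labelled *Prom1*-KO (6.71% of all genes) and 3 that were lower (7.89%). The median log2 fold change was -0.42 over the members and 0.01 over all genes.

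*Mertk* was at 26.4, 29.7 and 27.4 CPM in WT and at 17, 18.6 and 20 CPM in the libraries labelled *Prom1*-KO, which were all lower. The log2 fold change was -0.59 (SE 0.12, 95% confidence interval -0.87 to -0.3, adjusted p = 0.186, edgeR) and was -0.66 without library 12965-SB-06. *Itgav* was at 81.2, 63.2 and 83.9 CPM in WT and at 46.4, 48.4 and 41 CPM in the libraries labelled *Prom1*-KO, also all lower. Its log2 fold change was -0.75 (SE 0.15, 95% confidence interval -1.11 to -0.39, adjusted p = 0.184, edgeR), and -0.7 without that library. *Mfge8* was at 26.8, 31.4 and 22 CPM against 16.9, 20.5 and 16.1 CPM, again without overlap (-0.58, SE 0.17, adjusted p = 0.384, edgeR; -0.53 without that library).

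The ligands of the TAM receptors lay the other way. *Gas6* was at 46.4, 36.7 and 39.9 CPM in WT and at 57.3, 59.7 and 48.1 CPM in the libraries labelled *Prom1*-KO, with no overlap (log2 fold change 0.43, SE 0.15, adjusted p = 0.487, edgeR; 0.5 without library 12965-SB-06). *Pros1* was at 9.16, 12.4 and 11.1 CPM in WT and at 13.3, 17.3 and 15 CPM in the others (0.48, SE 0.17, adjusted p = 0.482, edgeR), also with no overlap, and at 0.48 without that library (adjusted p = 0.498). *Itgb5* was at 12.3 to 13.3 CPM in WT and 13.8 to 16.3 CPM in the libraries labelled *Prom1*-KO (0.18, adjusted p = 0.78, and 0.08 without library 12965-SB-06).

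For the remaining 3 members the tissue groups overlapped. *Axl* was at 32.5 to 41.1 CPM in WT and 27.5 to 36.6 CPM in the libraries labelled *Prom1*-KO, and *Tyro3* at 3.83 to 4.53 and 2.55 to 3.87 CPM. Their log2 fold changes were -0.18 and -0.42 (adjusted p = 0.826 and 0.643, edgeR), and -0.32 and -0.31 without library 12965-SB-06. *Cd36* (ENSMUSG00000002944, chromosome 5, 17986432 to 18094067, minus strand), a receptor of oxidised lipids that endothelium and macrophages also express, was at 13.3, 22.2 and 16.3 CPM in WT and at 9.01, 10.3 and 19.4 CPM in the others. The high value among the latter is that of library 12965-SB-06, and the log2 fold change of *Cd36* was -0.43 with it and -0.86 without it (adjusted p = 0.793 and 0.358, edgeR).

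**Figure D5:**
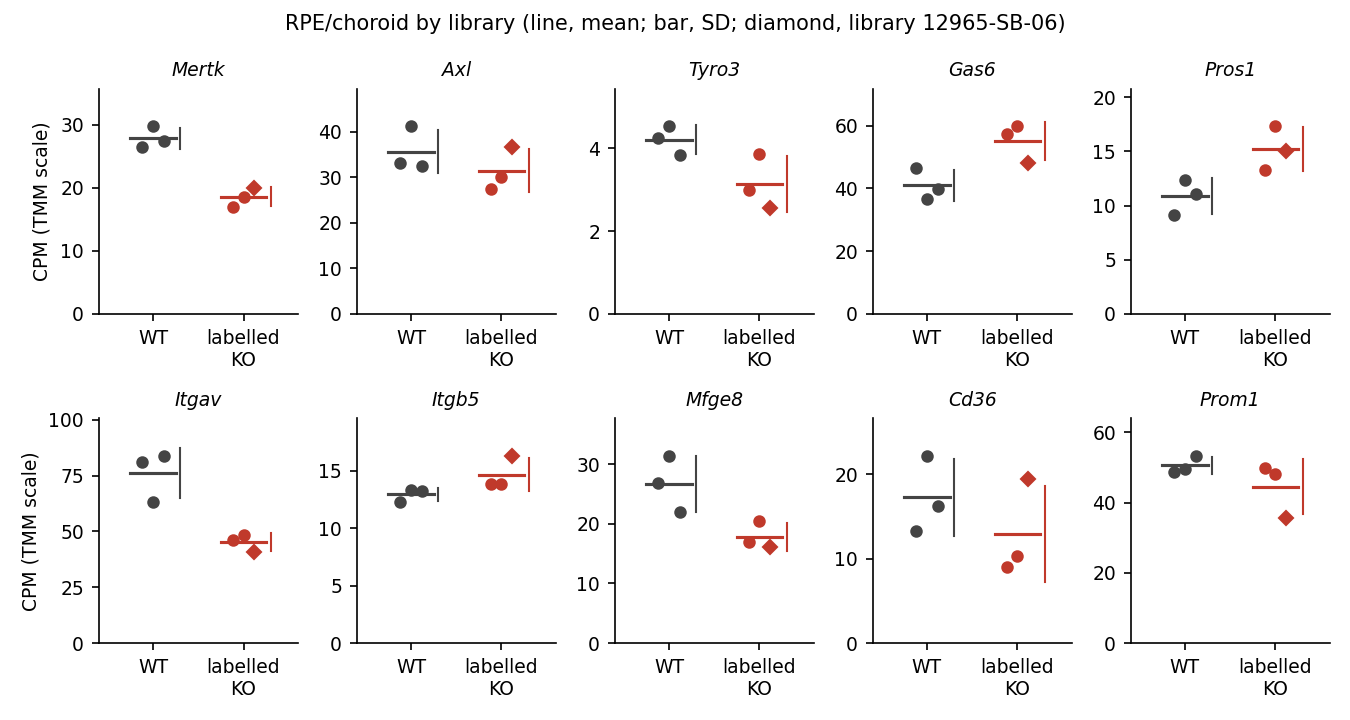
CPM on the TMM scale (axes from 0) of 9 members and *Prom1* in 6 RPE/choroid libraries. Points are libraries, horizontal lines group means and vertical lines ± SD; the diamond is library 12965-SB-06. *Mertk*, *Itgav* and *Mfge8* are lower, and *Gas6*, *Pros1* and *Itgb5* higher, in every library labelled *Prom1*-KO than in any WT library.

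The markers of the cells that make up this tissue also differed between its groups. The 13 RPE markers summed to 2100 to 3030 CPM in WT and to 669 to 894 CPM in the libraries labelled *Prom1*-KO. Of them, 3 fell past both limits: *Rpe65*, the retinoid isomerase, from 204 to 287 CPM down to 1.13 to 5.97 CPM (log2 fold change -6.06, adjusted p = 0.0191, edgeR), *Rgr* (-5.23, adjusted p = 0.0242) and *Lrat* (-3.43, adjusted p = 0.00445). Lower without overlap were 6 of the 13 and higher 0. These also included *Ttr* (-3.01), *Rlbp1* (-2.07) and *Mitf* (-0.82), which were not called. None of the 13 was at 0 in any library, and *Tyrp1* (292 to 374 CPM in WT, 269 to 331 in the others) and *Pmel* overlapped between the groups. The 5 melanocyte and Schwann cell markers summed to 395 to 643 CPM in WT and 670 to 741 CPM in the others. None of these was called, and their median log2 fold change was 0.06. The 8 endothelial markers summed to 125 to 240 CPM in WT and 81.2 to 113 CPM in the others, with none called. Of these 8, 7 had an unadjusted p under 0.05 with edgeR, against 8.3% of all genes. Lower without overlap were 5 of them, against 7.89% of all genes, and higher 0. Their median log2 fold change was -0.77. The 10 macrophage and microglia markers summed to 279 to 350 and 235 to 313 CPM, with none called, and photoreceptor markers varied widely within both groups (39.4 to 1100 and 20 to 540 CPM). The part of these markers in the values of *Mertk*, *Itgav*, *Mfge8*, *Gas6* and *Pros1* was not tested.

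Per length, *Mertk* stayed the leading TAM receptor in each tissue library, while by CPM *Axl* was above *Mertk* in each of them. The mean CPM of *Axl* and *Mertk* was 35.6 and 27.8 in WT, and 31.3 and 18.5 in the libraries labelled *Prom1*-KO. The order therefore depends on the merged exon length, 9180 bases for *Axl* and 4808 for *Mertk*. *Mertk* made up 56.3% ± 1.8 (SD, n = 3) of the summed receptor RPKM in WT and 49.9% ± 0.971 (n = 3) in the libraries labelled *Prom1*-KO, and *Axl* 37.6% ± 1.75 and 44% ± 2.35, without overlap for either. *Tyro3* made up 6.13% ± 0.376 and 6.14% ± 1.54. *Gas6* made up 81% ± 4.07 and 80.6% ± 2.33 of the summed ligand RPKM. The order by mean RPKM in WT tissue was *Gas6* (7.45), *Itgav* (6.17), *Mertk* (5.79), *Mfge8* (5.62), *Axl* (3.88), *Itgb5* (1.83), *Pros1* (1.72), *Cd36* (1.37) and *Tyro3* (0.631). The first 4 overlapped from one to the next, as did *Itgb5*, *Pros1* and *Cd36*.

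Set side by side with no test, since the tables were counted and scaled apart, *Axl* was the leading TAM receptor in WT culture (48.5 ± 5.95 RPKM against 12 ± 1.89 for *Mertk*) and *Mertk* in WT tissue (5.79 ± 0.353 RPKM against 3.88 ± 0.518 for *Axl*). *Gas6* stood first in both per length. By CPM, without division by length, *Axl* was above *Mertk* in both, at 445 against 57.8 in WT culture and 35.6 against 27.8 in WT tissue. *Itgav* (76.1 CPM) was then above *Gas6* (41 CPM) in WT tissue. In WT culture *Gas6* (461 CPM) was above *Itgav* (277 CPM), so the order of this pair differed between culture and tissue by CPM. Which genes differed in order thus depends on whether exon length is used. Of the 83 other phagocytosis genes, 81 were tested in tissue and none passed the adjusted p limit with edgeR, where 0.193% of all genes did. At an unadjusted p under 0.05 there were 15 of the 81, against 8.3% of all genes. The median log2 fold change of the 81 was -0.05.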

How the data were processed

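mRNA-seq was analysed in 9 mRPE and 6 RPE/choroid libraries, grouped by their sample labels. The authors trimmed reads with TrimGalore (0.6.7 in the submitters' processing notes), aligned them to mm39 with STAR, which gave the raw counts per gene, and deposited these. For culture and for tissue a second deposited table holds signal values, which the authors made by scaling each library with a size factor, and was not used. A gene entered a test if 3 or more libraries had 5 or more of its counts. Tests ran in R 4.3.3 on all such genes at once (edgeR 4.0.16, quasi-likelihood F test), with TMM normalization, the library prefix as batch in culture, and Benjamini-Hochberg adjustment. A call required both an adjusted p below 0.05 and a log2 fold change beyond 1.2 in size. The 7 WT and KO22 libraries gave KO22 against WT, and all 9 culture libraries gave the comparisons that involve KO26. A standard error is the size of the log2 fold change over the root of its F statistic. Within-batch values are differences of mean log2 CPM with a prior count of 2.

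CPM is on the TMM scale. RPKM divides it by the merged exon length of a gene in GENCODE vM39 (GRCm39). Rows without a gene symbol held at most 0.138% of the counts of a library. Between replicate libraries, the chi-square of the counts per degree of freedom was at least 4.8, so none held a copy of another's counts. This value cannot show whether libraries were made from the same culture or RNA. The methods were tested on simulated data. Named were all 9 members, the genes of 6 phagocytosis lists past both limits (at most 3 per list in each direction of a comparison), other listed genes with their values where a role is described, and for likeness the 3 genes with the highest Pearson r. *Ggcx*, *Adam10*, *Adam17*, *Cldn1* and *Plaat3* in KO22, the genes at the adjusted p alone in KO26, and the neighbours of *Gas6* were chosen for description after their values were seen. The members and lists were chosen with earlier results of these data known. Alternatives were DESeq2's size factors, the Wald test of DESeq2 1.42.0, scaling of levels by the total count, no count filter, filterByExpr, no fold limit, no batch term, other sets of libraries, and each library left out in turn.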

Additional observations from a re-analysis of the deposited data

Results flagged for a closer look

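The clones differed, by a test of the difference itself (edgeR over 9 libraries), in 6 of 8 members by the adjusted p alone, as did 16.3% of all genes in the higher and 18.1% in the lower direction. The log2 fold change of KO22 against KO26 was -3.4 for *Mertk*, -6.79 for *Gas6*, 1.9 for *Tyro3*, 0.75 for *Pros1*, -0.72 for *Itgb5* and -0.49 for *Axl*. The calls of *Pros1*, *Itgb5* and *Axl* were lost under 1 or more alternatives. The clones carry different deletions in *Prom1*, and KO26 rests on 2 libraries, which the study's own analysis set aside as outliers.

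In 3 members every KO22 library lay on one side of the WT culture libraries while every RPE/choroid library labelled *Prom1*-KO lay on the opposite side of WT tissue, and this difference was not tested. The share of all genes with such opposite sides was not counted, so the number of members cannot be set against it. In tissue alone the groups did not overlap for 6.71% of all genes in the higher and 7.89% in the lower direction. *Gas6* was at a log2 fold change of -6.61 in KO22 and 0.43 in tissue. *Itgav* was at 0.29 in KO22 and -0.75 in tissue, neither past the adjusted p limit with edgeR, and its culture groups were apart only before rounding. *Itgb5* was at -0.78 in KO22 and 0.18 in tissue, where its adjusted p was 0.78.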

How the results depend on the processing

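*Mertk*, *Gas6* and *Tyro3* stayed past both limits in KO22 against WT under all 15 alternatives, from -3.93 to -3.53, from -7.11 to -6.09 and from 2.13 to 2.47, and under all 16 in KO22 against KO26. With no fold limit, 6 members passed in each of these comparisons, and over all genes 10837 passed in KO22 against WT, 7132 in KO22 against KO26 and 725 in KO26 against WT. KO22 and KO26 libraries alone gave 2336 genes between the clones, against 3797. No member passed both limits in KO26 against WT or in RPE/choroid under any alternative.

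Over all genes, KO26 against WT gave 399 calls, 629 with DESeq2's Wald test, 194 with no batch term, 818 with WT and KO26 libraries alone and 114 to 878 with one library left out (114 without KO26 replicate 1, 119 to 131 without a WT library of batch 9262, 626 without KO26 replicate 2 and 878 without KO22 replicate 1). RPE/choroid gave 47 calls, 273 with DESeq2's Wald test and 9 to 40 with one library left out (14 without WT replicate 1, 21 without WT replicate 2 or 3, and 9 without labelled *Prom1*-KO replicate 2). The cause was not tested.

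Directions turned only for uncalled values. In KO26 against WT, leaving out one library gave -0.46 to 0.02 for *Mertk*, -0.19 to 0.83 for *Tyro3*, -0.12 to 0.63 for *Gas6*, -0.3 to 0.03 for *Pros1* and -0.13 to 0.36 for *Itgav*, and *Gas6* was at -0.12 with no batch term. In KO22 against KO26, *Itgav* ran from -0.07 to 0.42. Scaling by the total count moved 12 of the 42 group means in RPKM by more than 1 SD, all in tissue.

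No paired analysis was possible because the labels give no replicate numbers that the groups share. *Tyro3* rests on 18 to 64 counts a library in WT and KO26, which limits how small a change could be seen.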
